A study of Mus musculus with 36 samples.

Results

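The Kruppel-like factors described here are 10 genes, Klf2, Klf3, Klf4, Klf5, Klf6, Klf7, Klf9, Klf10, Klf13 and Klf15, of the 55421 genes in a table of hippocampal slice transcripts. They were taken by matching the mouse Ensembl identifiers of the table to these symbols, and all 10 were found and passed the filter on low counts. Slices came from the right hippocampus of 18 mice, either wild-type C57BL/6 mice or T41B mice, which are Thy1-hAPP Lond/Swe Line 41 animals. T41B mice make a human amyloid precursor protein carrying both the London and the Swedish mutation, from a Thy1 promoter that is active mainly in neurons, so the transgene is not driven by the cells' own App control. Every mouse was dosed by oral gavage for 3 months, from 13 to 16 months of age, with vehicle or with BD10-2 (PTX-BD10-2 in the sample labels), a small molecule that partially activates TrkB and TrkC, which are neurotrophin receptors. Slices received theta-burst stimulation, in 3 trains of 10 bursts with 4 stimuli at 100 Hz and 200 ms between bursts, or a sham procedure, and were frozen directly afterwards. The wild-type and T41B vehicle groups held 4 mice each in both slice states, the wild-type BD10-2 groups 3 and the T41B BD10-2 groups 5.

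Kruppel-like factors are DNA-binding proteins with a zinc-finger domain at the carboxy end that recognizes GC-rich and CACCC-type sites, the same class of site that the related Sp factors bind. They differ in the rest of the protein, and with it in their partners. Klf2, Klf4, Klf5, Klf6 and Klf7 act largely as activators, Klf3 recruits the CtBP corepressor, and Klf9, Klf10 and Klf13 recruit the SIN3 corepressor. Klf15 is placed outside these classes. In brain, Klf4 and Klf9 are known to limit axon growth and Klf6 and Klf7 to favour it, while Klf2 and Klf4 are best known for the quiescent state of endothelium and myeloid cells. Klf9, Klf13 and Klf15 are also known as genes that respond to glucocorticoid or other nuclear hormone receptors.

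The promoters of Klf6, Klf2 and Klf4 are shown because these 3 genes were the ones called for genotype below. In single comparisons Klf6 and Klf2 were also called for stimulation and Klf4 was not. Klf10 and Klf15, called there for stimulation only, are not shown. Each is the 250 bases before the RefSeq transcription start on build GRCm38.p6, read 5′ to 3′ on the gene's strand. Klf6 lies at chr13:5861239-5861488 on the plus strand, Klf2 at chr8:72318812-72319061 on the plus strand and Klf4 at chr4:55532476-55532725 on the minus strand. Capitals mark every match to a searched motif. The annotated genes lie at 5861482 to 5870394 on chromosome 13 for Klf6 (ENSMUSG00000000078), 72319033 to 72321656 on chromosome 8 for Klf2 (ENSMUSG00000055148) and 55527143 to 55532466 on chromosome 4 for Klf4 (ENSMUSG00000003032).
Klf6: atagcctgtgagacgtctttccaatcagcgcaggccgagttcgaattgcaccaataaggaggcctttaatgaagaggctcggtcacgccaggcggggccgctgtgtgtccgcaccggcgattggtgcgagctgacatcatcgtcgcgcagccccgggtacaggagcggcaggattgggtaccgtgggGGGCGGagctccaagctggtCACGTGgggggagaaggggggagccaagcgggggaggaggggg
Klf2: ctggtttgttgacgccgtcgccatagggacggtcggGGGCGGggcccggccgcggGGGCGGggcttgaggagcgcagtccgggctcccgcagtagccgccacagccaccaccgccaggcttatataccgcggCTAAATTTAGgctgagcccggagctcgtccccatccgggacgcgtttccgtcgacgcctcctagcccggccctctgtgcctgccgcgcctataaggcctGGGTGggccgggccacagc
Klf4: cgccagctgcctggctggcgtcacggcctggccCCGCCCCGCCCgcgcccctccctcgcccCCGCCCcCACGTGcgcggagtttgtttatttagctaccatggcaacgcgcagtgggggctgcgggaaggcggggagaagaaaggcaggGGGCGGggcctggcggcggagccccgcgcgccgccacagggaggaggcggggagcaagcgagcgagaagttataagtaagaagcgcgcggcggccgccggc
Motifs were searched on both strands, and a match to the same bases on both strands counts once. In Klf6 the capitals are a GC box (GGGCGG) 63 to 58 bases before the start and an ACGTG core, read on both strands, 43 to 38 bases before it. In Klf2 they are 2 GC boxes, a MEF2 site 118 to 109 bases before the start, and a CACCC core. In Klf4 they are 4 GC boxes, of which a pair shares a base, and an ACGTG core read on both strands.

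A RefSeq promoter was matched for 8 of the 10 genes, all but Klf5 and Klf10. GC boxes were found in 7 of those 8, all but Klf9, and in 32.7% of 32851 mouse promoter windows of this length. The CACCC core, the letters that the family itself reads, was found in 6 of the 8 and in 52.0% of all windows. The ACGTG core, the core of hypoxia response and E-box elements, was in Klf4, Klf6, Klf9 and Klf15, and in 16.6% of all windows. The AP-1 letters (TGANTCA) occurred in Klf9, overlapping its CACCC core, and in 6.75% of windows, and the MEF2 site occurred in Klf2 and in 2.92%. None of the 8 windows held the cyclic AMP response element (TGACGTCA, 1.55% of all windows), the glucocorticoid receptor hexamer (AGAACA, 16.1%), the NF-kappaB site (7.25%) or the CArG box (1.47%), which says nothing about other sequence near these genes. GC content of the 8 windows ran from 59.2% in Klf7 to 78.4% in Klf3, against a median of 52.4%. Within these 8 windows 3 matches overlapped a match to another motif.

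Total expected counts per library ran from 11597554 to 28125842. Before the results, 3 features of the libraries bear on them. Thy1, whose promoter drives the transgene, lay between 253 and 403 CPM in wild-type samples and between 1034 and 2506 CPM in T41B samples, so the genotype labels matched it in every sample. For 4 mouse and slice combinations 2 libraries carried the same labels and were added together, and one of them, a stimulated T41B BD10-2 library of Mouse1592, had the lowest Thy1 of all T41B libraries, 879.6 CPM against 1909 CPM in its partner. Summed markers of choroid plexus, an epithelium beside the hippocampus, reached 1214 and 994 CPM in the stimulated wild-type vehicle slices of Mouse1509 and Mouse1513, against 14.1 and 21.4 CPM in the other 2 slices of that group. T41B vehicle slices held choroid markers too, with 132.5 and 528.8 CPM in the sham and 294.9 and 114.5 CPM in the stimulated slices of Mouse1551 and Mouse1553, against at most 28.5 CPM in all other slices. Without the pair of wild-type slices, stimulation called 2 genes in wild-type vehicle slices, Klf6 (0.90, edgeR adjusted p = 0.00275) and Klf2, and 6 in the average described below, while the averaged genotype comparison called 3. The stimulated vehicle genotype comparison and the vehicle and averaged genotype by stimulation tests called 0 of the 10 genes with or without the pair. Klf6, the gene called for stimulation in T41B vehicle slices, was called in all 13 alternatives there, which include leaving out Mouse1551 or Mouse1553. Markers of hippocampal neurons (7 of 7 detected in every group) were present throughout and neutrophil markers summed to at most 0.349 CPM, with Ly6g or Camp at 0 in every group.

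Levels were compared between genes as CPM per kilobase of the gene's merged exons (GENCODE M21), where CPM relates a count to the TMM-scaled total of its library. Klf13, a SIN3-binding repressor, was the most abundant, with a median over 32 samples of 40.1 CPM per kilobase (34.2 to 54.2). Klf9, another SIN3-binding member known as a brain and hormone-induced factor, followed at 32.9 (29.2 to 40.1), and Klf6 at 22.9 (12.6 to 43.9). The ranges of these 3 genes overlapped, and Klf6 had the widest of them. A middle group held Klf4 at 10.5 (6.77 to 19.1), Klf7 at 8.10 (6.46 to 9.83) and Klf10 at 7.31 (5.44 to 9.22). Klf15 at 5.89 (3.05 to 8.33), Klf2 at 5.04 (2.71 to 8.06), Klf3 at 4.12 (3.13 to 5.30) and Klf5 at 2.40 (0.579 to 4.05) were lowest, and each range overlapped that of its neighbour in the order. Counts behind these values ran from 61 to 506 reads for Klf5 and from 91 to 413 for Klf2, the least deeply read members, up to 4438 to 18130 for Klf13. Klf7 shares 3196 exon bases with the opposite-strand gene Gm26649, and Klf3 shares 404 with Gm20033. The strand setting of the counting is not given in the sources used here, so the levels of Klf7 and Klf3 are uncertain.

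Theta-burst stimulation was set against the sham procedure separately for wild-type and T41B mice on vehicle and on BD10-2, which asks what the slice transcribes right after the induction of plasticity. Klf6 rose in all 4 combinations, Klf2 fell and Klf10 rose in both wild-type groups, and Klf15 fell in T41B BD10-2 slices. The other 6 genes, Klf3, Klf4, Klf5, Klf7, Klf9 and Klf13, passed the test in none of the 4. In wild-type vehicle slices 3 of the 10 genes were called, against 12.3% of all 19478 genes tested. In T41B vehicle slices 1 of 10 was called, against 21.5% of all genes, in wild-type BD10-2 slices 3 of 10 against 8.87%, and in T41B BD10-2 slices 2 of 10 against 22.9%. In this fit, which did not pair the slices of a mouse, the share in wild-type slices was above that of all genes. In T41B slices it was below or near it. Over its alternatives the wild-type BD10-2 count ran from 0 to 4. With limma voom and the mouse as a random replicate block, 4 of the 10 were called in each combination, wild-type or T41B. That fit called 4138, 6307, 3117 and 6103 of all genes in the same order. The median log2 fold change of the 10 genes was -0.11, -0.03, -0.06 and -0.04 in the same order, and that of all genes was -0.01, -0.05, -0.01 and -0.04.

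Klf6 is an early-response activator that many cells induce after injury or growth-factor signals. In wild-type vehicle mice, Klf6 measured 58.0, 59.8, 83.1 and 55.2 CPM in the sham slices of Mouse1509, Mouse1513, Mouse1522 and Mouse1524 and 110.1, 114.3, 114.4 and 124.1 CPM in their stimulated slices. In T41B vehicle animals Mouse1510, Mouse1551, Mouse1553 and Mouse1579 it measured 89.1, 76.1, 79.8 and 92.0 CPM in sham and 151.9, 168.3, 144.7 and 121.6 CPM in stimulated slices. Every stimulated slice lay above every sham slice of the same group in both vehicle genotypes. In wild-type BD10-2 mice Klf6 measured 62.1, 69.0 and 56.3 CPM in sham slices (Mouse1565, Mouse1571 and Mouse1590) and 98.1, 98.7 and 102.7 CPM in stimulated slices (Mouse1565, Mouse1586 and Mouse1571). In T41B BD10-2 mice it measured 89.0, 72.8, 128.8, 102.2 and 70.5 CPM in sham slices (Mouse1557, Mouse1570, Mouse1563, Mouse1564 and Mouse1592) and 184.2, 168.5, 192.7, 114.2 and 150.8 CPM in stimulated slices (Mouse1563, Mouse1570, Mouse1564, Mouse1592 and Mouse1572). Only in this last group did the ranges overlap, since the sham slice of Mouse1563 lay above the stimulated slice of Mouse1592. By log2 fold change the rise came to 0.85 (SE 0.16, edgeR adjusted p = 0.000308) in wild-type vehicle slices and 0.80 (SE 0.16, edgeR adjusted p = 0.00038) in T41B vehicle slices. Under BD10-2 it was 0.68 (SE 0.18, edgeR adjusted p = 0.0156) in wild-type slices and 0.80 (SE 0.14, edgeR adjusted p = 6.27e-05) in T41B slices. The wild-type BD10-2 call was lost without Mouse1565 (edgeR adjusted p = 0.110), Mouse1571 (0.0644) or Mouse1590 (0.101). Among the 14 mice with both slices, Klf6 was higher in the stimulated slice in 14 of 14, by 0.40 to 1.20 on the log2(CPM + 1) scale.

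**Figure D1:**
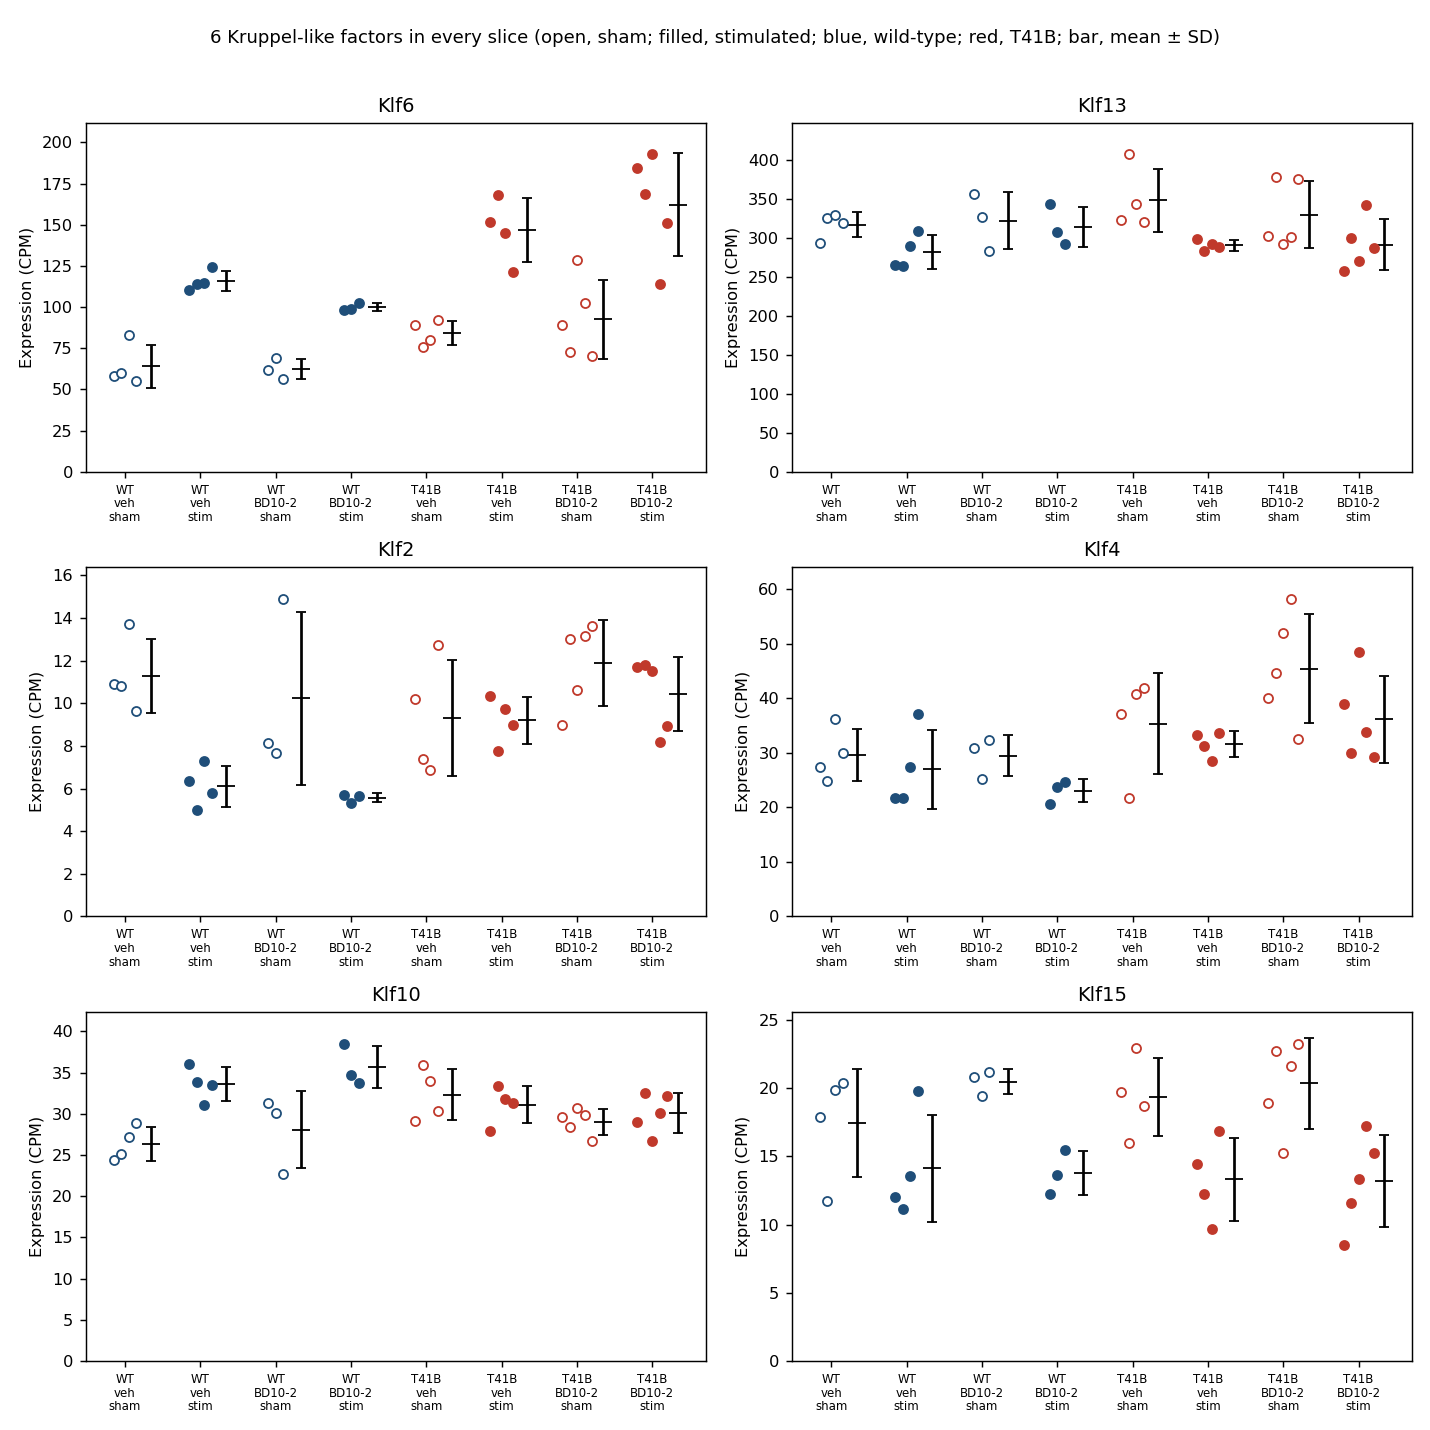
Expression in CPM (vertical axes from 0) of Klf6, Klf13, Klf2, Klf4, Klf10 and Klf15 in each of the 8 groups (horizontal axes), with 1 point per mouse, open for sham and filled for stimulated slices, blue for wild-type and red for T41B, and the group mean ± SD beside it. Filled Klf6 points sit at 98.1 to 192.7 CPM and open ones at 55.2 to 128.8 CPM, and stimulated wild-type slices hold the lowest Klf2 values.

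Klf2, a flow-responsive factor of endothelium that is also made by myeloid cells, had the lowest log2 fold changes of the 10 genes in both wild-type comparisons, while Klf15 had the lowest in both T41B ones. In wild-type vehicle animals Mouse1509, Mouse1513, Mouse1522 and Mouse1524 it measured 10.9, 10.8, 13.7 and 9.64 CPM in sham and 6.34, 5.01, 7.30 and 5.78 CPM in stimulated slices. In wild-type BD10-2 mice it measured 8.13, 7.67 and 14.9 CPM in sham and 5.72, 5.32 and 5.64 CPM in stimulated slices. The stimulated values lay below all sham values in both groups. T41B vehicle animals Mouse1510, Mouse1551, Mouse1553 and Mouse1579 gave 10.2, 7.41, 6.86 and 12.8 CPM in sham and 10.3, 7.78, 9.74 and 8.98 CPM in stimulated slices. T41B BD10-2 mice gave 8.97, 13.0, 10.6, 13.2 and 13.6 CPM in sham and 11.7, 11.8, 11.5, 8.19 and 8.92 CPM in stimulated slices (each in the mouse order given for Klf6, with the stimulated order Mouse1563, Mouse1570, Mouse1564, Mouse1592 and Mouse1572). Sham and stimulated values overlapped in both T41B groups. Klf2 fell by 0.88 on the log2 scale in wild-type vehicle slices (SE 0.20, edgeR adjusted p = 0.00339) and fell by 0.87 in wild-type BD10-2 slices (SE 0.23, edgeR adjusted p = 0.0141). In T41B slices the log2 fold change was -0.01 (SE 0.20, 95% interval -0.40 to 0.38) under vehicle and -0.19 (SE 0.17, 95% interval -0.53 to 0.16) under BD10-2, and neither passed the test. The wild-type vehicle call held without the 2 choroid-rich slices (-0.78, edgeR adjusted p = 0.0484). The wild-type BD10-2 call was lost in 5 of 13 alternatives. These were the mouse as a fixed replicate block (log2 fold change -0.47, edgeR adjusted p = 0.231), batch as a covariate (0.0696), the first library of each same-label pair (-0.72, edgeR adjusted p = 0.116), without Mouse1590 (-0.51, edgeR adjusted p = 0.226) and without Mouse1586 (0.0664). The 2 sham libraries of Mouse1565 in this group measured 6.15 and 11.1 CPM.

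Cell markers moved with stimulation too. Summed endothelial markers (8 of 8 detected in every group) lay between 126.5 and 146.7 CPM in sham and between 30.6 and 250.6 CPM in stimulated wild-type vehicle slices, with the lowest in Mouse1524. In wild-type BD10-2 slices the same sum was 118.1 to 142.7 CPM in sham and 128.9 to 211.1 CPM in stimulated slices, with overlap. Summed microglial markers (9 of 9 detected in every group) were 258.6 to 337.1 CPM in sham and 114.2 to 192.7 CPM in stimulated wild-type vehicle slices, and 281.6 to 347.7 against 138.6 to 174.1 CPM under BD10-2. They were also lower in stimulated T41B slices (315.6 to 463.5 against 568.9 to 1073 CPM under vehicle, 447.8 to 656.6 against 708.1 to 989.2 CPM under BD10-2), where Klf2 passed no test. Of 7 astrocyte markers 3, 4, 0 and 3 were called higher with stimulation in wild-type vehicle, T41B vehicle, wild-type BD10-2 and T41B BD10-2 slices, and of 8 neuron markers 1, 1, 3 and 3 were called lower. Of 6 mural cell markers 2, 0, 1 and 2 were called lower (median log2 fold change -0.48, -0.02, -0.40 and -0.35), and of 5 fibroblast and meningeal markers 0, 1, 1 and 2. Of 7 hippocampal neuron markers 0, 3, 1 and 2 were called lower and 0, 1, 0 and 1 higher. Summed ependymal markers were 15.1 to 34.5 CPM in sham and 9.25 to 13.3 CPM in stimulated T41B vehicle slices, and sham and stimulated sums overlapped in the other combinations. The part of all these markers in the results for Klf2, Klf6 and the other genes was not tested. In whole slices, fewer cells of a type and less RNA per cell cannot be told apart.

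Klf10, a SIN3-binding factor that transforming growth factor beta induces early, measured 24.4, 25.1, 27.2 and 28.9 CPM in sham and 36.0, 33.9, 31.1 and 33.4 CPM in stimulated slices of wild-type vehicle mice, with no overlap. Wild-type BD10-2 slices gave 31.4, 30.1 and 22.7 CPM in sham and 38.5, 34.8 and 33.7 CPM in stimulated slices, again with no overlap. T41B slices ran from 29.1 to 35.9 CPM in sham and 27.95 to 33.3 CPM in stimulated slices under vehicle, and from 26.6 to 30.7 and 26.7 to 32.6 CPM under BD10-2, and these ranges overlapped. Klf10 rose by 0.35 on the log2 scale in wild-type vehicle slices (SE 0.09, edgeR adjusted p = 0.0112) and by 0.34 in wild-type BD10-2 slices (SE 0.10, edgeR adjusted p = 0.0374). The log2 fold change in T41B slices was -0.06 (SE 0.09) under vehicle and 0.05 (SE 0.08) under BD10-2. The wild-type vehicle call was lost without Mouse1509 (edgeR adjusted p = 0.132), without Mouse1513 (0.0704) and without both of their choroid-rich slices (0.29, edgeR adjusted p = 0.102). The wild-type BD10-2 call was lost in 9 of 13 alternatives, with mouse as a fixed replicate block among them (0.24, edgeR adjusted p = 0.194) and with edgeR adjusted p from 0.0518 to 0.280 when any one mouse was left out.

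Klf15, known as a clock and glucocorticoid-controlled factor of metabolism, measured 18.9, 22.7, 15.2, 21.6 and 23.3 CPM in sham and 8.52, 11.6, 13.3, 17.2 and 15.3 CPM in stimulated T41B BD10-2 slices. The ranges overlapped, through the sham slice of Mouse1563 and the stimulated slices of Mouse1592 and Mouse1572. Klf15 fell by 0.62 on the log2 scale in this group (SE 0.18, edgeR adjusted p = 0.0112), a call lost without Mouse1570 (-0.53, edgeR adjusted p = 0.0671). On the log2 scale Klf15 differed by -0.31 (SE 0.20, edgeR adjusted p = 0.335) in wild-type vehicle, -0.54 (SE 0.20, edgeR adjusted p = 0.0515) in T41B vehicle and -0.58 (SE 0.23, edgeR adjusted p = 0.115) in wild-type BD10-2 slices. In the T41B vehicle slices it was called with the mouse as a replicate block, fixed or random. Klf15 was lower in the stimulated slice in 14 of 14 mice, with differences from -1.16 to -0.04 on the log2(CPM + 1) scale.

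**Figure D2:**
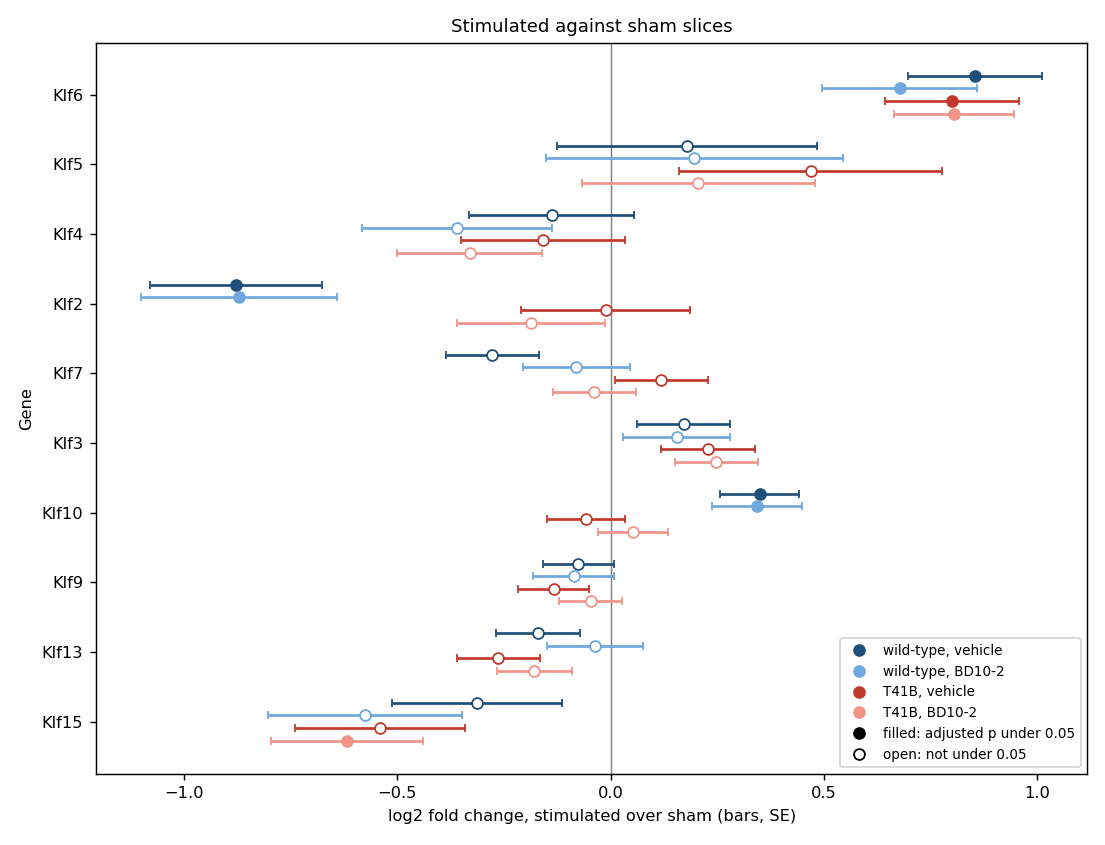
Log2 fold change of stimulated over sham slices (horizontal axis) with its SE for each of the 10 genes (vertical axis) in the 4 combinations of genotype and treatment, filled where the edgeR adjusted p was under 0.05. Klf6 is filled in all 4, at 0.68 to 0.85, and Klf2 and Klf10 are filled in the 2 wild-type combinations.

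The remaining genes passed in no single comparison. Klf13 had log2 fold changes of -0.26 to -0.04 and was lower in the stimulated slice in 14 of 14 mice, with differences from -0.52 to -0.05 on the log2(CPM + 1) scale. Klf3, the CtBP-binding repressor, had log2 fold changes of 0.15 to 0.25 and was higher in 13 of 14 mice. The smallest edgeR adjusted p was 0.0531 for Klf13 and 0.0659 for Klf3. With the mouse as a replicate block, fixed or random, both were called in T41B vehicle slices together with Klf6 and Klf15, which makes 4 of the 10 genes there against 1 without the block. Of all genes, limma voom with the random block called 6307 there, against 4197 by edgeR without it. In wild-type vehicle, wild-type BD10-2 and T41B BD10-2 slices it called 4138, 3117 and 6103, against 2397, 1727 and 4453. With the mouse as a random replicate block, 4 were also called in T41B BD10-2 slices, Klf6, Klf3, Klf15 and Klf13. In wild-type BD10-2 slices, where just 2 mice had both slices, the fixed block left only Klf6 called, and the random block called 4 genes, Klf6, Klf2, Klf10 and Klf15. In wild-type vehicle slices either block called 4, with Klf7 added to Klf6, Klf2 and Klf10. Klf4, which with Klf2 guards endothelial quiescence and in neurons limits axon growth, had log2 fold changes of -0.36 to -0.14. Klf9 had -0.13 to -0.05, and it was lower in the stimulated slice in 8 of 8 T41B mice and 4 of 6 wild-type mice. Klf7, an activator of neuronal genes, had -0.28 to 0.12, with its lowest value in wild-type vehicle slices (edgeR adjusted p = 0.0963). Klf5, an activator of proliferation in epithelia, had 0.18 to 0.47 with SE of 0.27 to 0.35, the largest of the 10 genes. Its slices lay far apart within a group, from 3.01 to 15.7 CPM in sham T41B vehicle slices.

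Averaged over the 4 combinations in the same fit, a contrast chosen after the single ones had been seen, 7 of the 10 genes were called against 46.8% of all genes tested. Klf6 rose by 0.78 (SE 0.08, edgeR adjusted p = 2.66e-09), Klf3 by 0.20 (SE 0.06, edgeR adjusted p = 0.00379) and Klf10 by 0.17 (SE 0.05, edgeR adjusted p = 0.00328). Klf15 fell by 0.51 (SE 0.10, edgeR adjusted p = 0.000127), Klf2 fell by 0.49 (SE 0.10, edgeR adjusted p = 0.00023), Klf4 fell by 0.25 (SE 0.10, edgeR adjusted p = 0.0389) and Klf13 fell by 0.16 (SE 0.05, edgeR adjusted p = 0.00838). Klf5 (0.26, SE 0.15), Klf7 (-0.07, SE 0.06) and Klf9 (-0.09, SE 0.04) did not pass. With the mouse as a random replicate block 9 of the 10 were called, all but Klf7, and with the fixed block 6, all those above but Klf4. The random block, fitted by limma voom, called 10781 of 19478 genes in this average, against 9118 by edgeR without it. By class, 1 of the 5 activators rose and 2 fell, the CtBP-binding Klf3 rose, and of the 3 SIN3-binding genes 1 rose and 1 fell. The Klf4 call was lost in 14 of 27 alternatives, with the mouse as a fixed replicate block (edgeR adjusted p = 0.0540) and without the choroid-rich slices (-0.18, edgeR adjusted p = 0.135) among them. The averages of Klf2 and Klf10 combine wild-type and T41B values that lie apart.

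Whether stimulation acted differently in T41B and wild-type slices was tested as the difference of the 2 stimulation effects. No gene of the 19478 was called under vehicle or under BD10-2 (0.0% each), although 1683 and 846 genes had an unadjusted p under 0.05, and DESeq2 called 4 and 20 and limma voom 0 and 5. Genes with an unadjusted p under 0.05 included Klf2, Klf7 and Klf10 under vehicle and Klf2 and Klf10 under BD10-2. Klf2 differed by 0.87 under vehicle (SE 0.28, edgeR adjusted p = 0.436) and by 0.68 under BD10-2 (SE 0.29, edgeR adjusted p = 1.0), less negative in T41B slices each time. In the same contrasts the median of 8 endothelial markers was 0.79 under vehicle and 0.26 under BD10-2 and that of 6 mural cell markers 0.63 and 0.27, with none called, and their part in the Klf2 value was not tested. Klf10 differed by -0.41 under vehicle (SE 0.13, edgeR adjusted p = 0.430) and by -0.29 under BD10-2 (SE 0.13, edgeR adjusted p = 1.0). Averaged over both treatments, a contrast added afterwards, 0.195% of all genes were called. In that average Klf2 differed by 0.77 (SE 0.20, edgeR adjusted p = 0.116) and Klf10 by -0.35 (SE 0.09, edgeR adjusted p = 0.128), and neither passed. DESeq2 called Klf2 in it, limma voom with the mouse as a random block called Klf10, and edgeR called Klf2 without Mouse1592. Klf7 differed by 0.40 under vehicle (SE 0.15, edgeR adjusted p = 0.507). Klf6 differed by 0.04 in the average (SE 0.16, 95% interval -0.27 to 0.35).

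The mice that gave both slices allow a look at each animal. Klf2 was lower in the stimulated slice in 6 of 6 wild-type mice, with differences from -0.97 to -0.38 on the log2(CPM + 1) scale, and in 4 of 8 T41B mice, whose differences ran from -0.67 to 0.45. Klf10 was higher in the stimulated slice in 6 of 6 wild-type mice, by 0.16 to 0.55, and in 3 of 8 T41B mice, with differences from -0.16 to 0.19. Klf7 was lower in 6 of 6 wild-type and 5 of 8 T41B mice. Both slices of a mouse carry the same batch label, so these differences lie within batches.

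**Figure D3:**
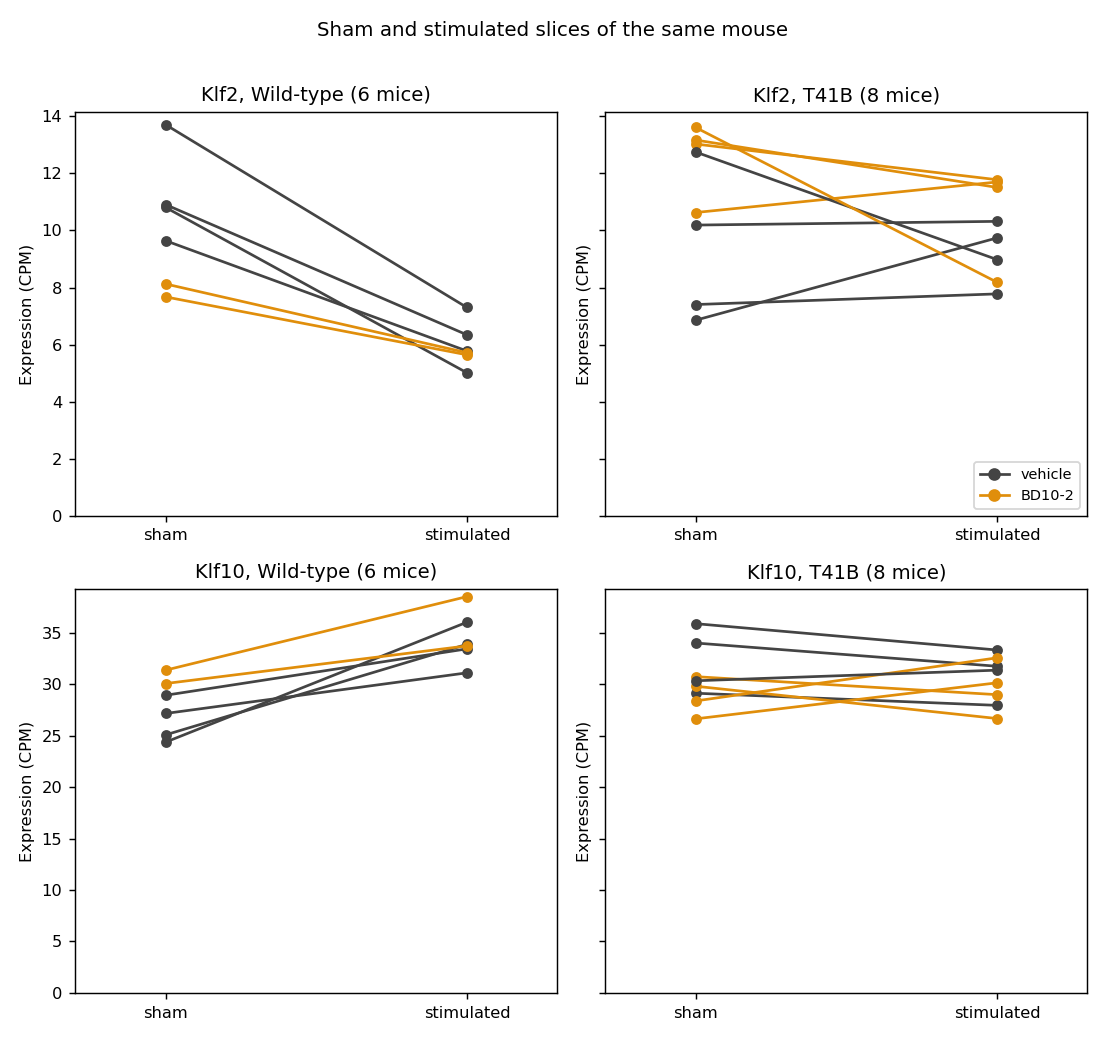
Expression in CPM (vertical axes from 0) of Klf2 (top) and Klf10 (bottom) in the sham and stimulated slice of each mouse (horizontal axes), joined by a line, for 6 wild-type mice (left) and 8 T41B mice (right), grey for vehicle and orange for BD10-2. All 6 wild-type lines fall for Klf2 and rise for Klf10, while T41B lines run both ways.

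T41B slices were compared with wild-type slices under each treatment and slice state, which asks what the amyloid model changes. Klf6 was higher in T41B slices under BD10-2 in both slice states, and Klf2 and Klf4 were higher in stimulated BD10-2 slices. Under vehicle 0 of the 10 genes were called, against 6.24% of all genes in sham and 5.79% in stimulated slices. Of the 10, Klf6 and Klf10 in sham and Klf6 and Klf2 in stimulated vehicle slices had an unadjusted edgeR p under 0.05, and DESeq2 called Klf10 in sham and Klf2 in stimulated slices. Under BD10-2 1 of 10 was called in sham slices against 5.45% of all genes, and 3 of 10 in stimulated slices against 10.6%. No member was called lower in T41B slices, and few of all genes were. In sham vehicle, stimulated vehicle, sham BD10-2 and stimulated BD10-2 slices 242, 205, 223 and 460 of 19478 genes were called lower. In the same order 973, 923, 839 and 1596 were called higher. Whether the genotype effect differed between BD10-2 and vehicle was not tested.

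Klf6 had means of 62.4 ± 6.34 CPM (SD, n = 3) in wild-type and 92.7 ± 23.9 CPM (SD, n = 5) in T41B sham BD10-2 slices, and 99.8 ± 2.50 CPM (SD, n = 3) against 162 ± 31.2 CPM (SD, n = 5) in the stimulated ones. The log2 fold change of T41B over wild-type was 0.57 in sham (SE 0.16, edgeR adjusted p = 0.0364) and 0.70 in stimulated BD10-2 slices (SE 0.16, edgeR adjusted p = 0.00419), with no overlap of groups. Under vehicle it was 0.40 in sham (SE 0.16, edgeR adjusted p = 0.140) and 0.34 in stimulated slices (SE 0.16, edgeR adjusted p = 0.243). The sham BD10-2 call was lost in 8 of 16 alternatives, with batch as a covariate (0.34, edgeR adjusted p = 0.138) and without any one of Mouse1563, Mouse1564, Mouse1565, Mouse1571 and Mouse1590 (0.0702 to 0.198) among them. The stimulated BD10-2 call was kept in 16 of 16.

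Klf4 measured 20.6, 23.8 and 24.7 CPM in stimulated wild-type BD10-2 slices and 39.0, 30.04, 48.5, 33.9 and 29.3 CPM in the T41B ones, with no overlap. Its log2 fold change there was 0.65 (SE 0.20, edgeR adjusted p = 0.0351), and the call was lost in 7 of 16 alternatives, with batch as a covariate (0.44, edgeR adjusted p = 0.115) among them. In sham BD10-2 slices Klf4 measured 30.9, 25.3 and 32.4 CPM in wild-type and 40.0, 44.6, 51.9, 58.2 and 32.6 CPM in T41B slices, again with no overlap, and the difference of 0.62 (SE 0.20) did not pass (edgeR adjusted p = 0.0657). Under vehicle the log2 fold change was 0.25 in sham and 0.23 in stimulated slices (SE 0.19 each). Klf2 was 0.90 higher in stimulated T41B BD10-2 slices (SE 0.21, edgeR adjusted p = 0.0039) and this was kept in 16 of 16 alternatives. In stimulated vehicle slices it was 0.59 (SE 0.20, edgeR adjusted p = 0.0869), with no overlap between 5.01 to 7.30 CPM in wild-type and 7.78 to 10.3 CPM in T41B slices. In sham slices Klf2 had -0.28 (SE 0.20) under vehicle and 0.22 (SE 0.20) under BD10-2, and these groups overlapped.

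**Figure D4:**
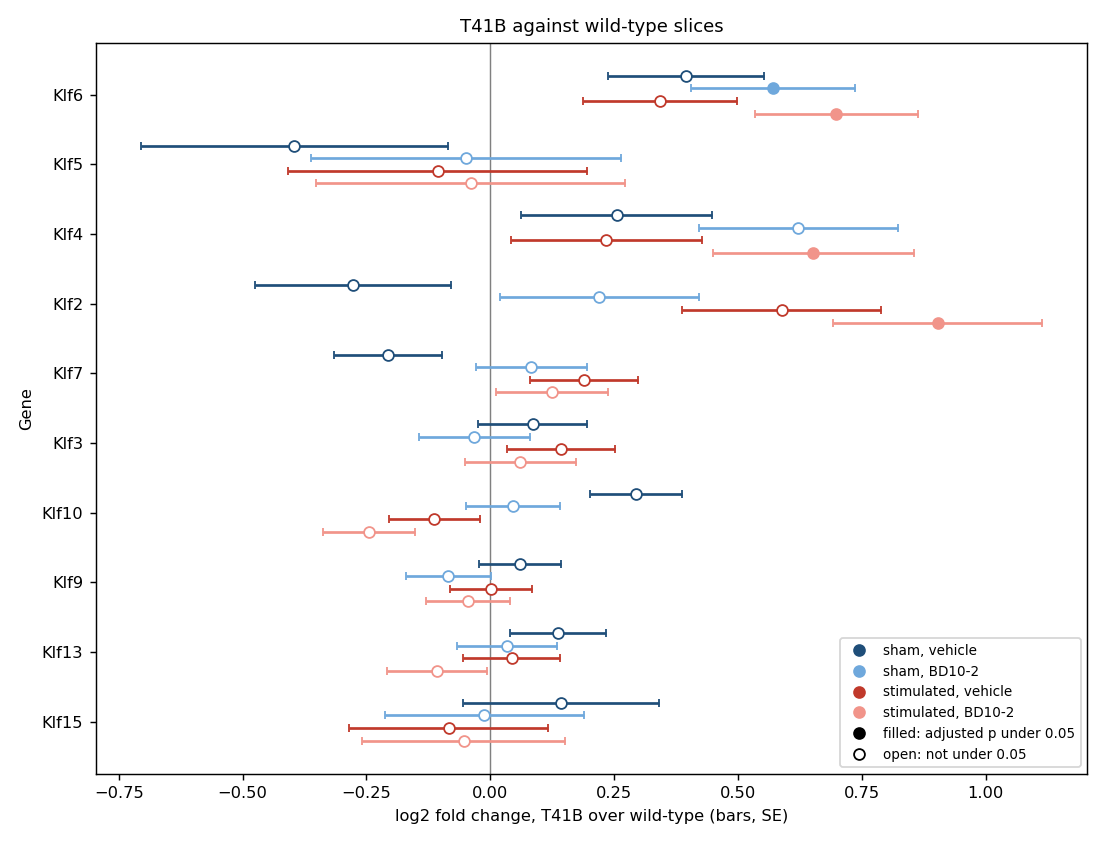
Log2 fold change of T41B over wild-type slices (horizontal axis) with its SE for each of the 10 genes (vertical axis) in the 4 combinations of slice state and treatment, filled where the edgeR adjusted p was under 0.05. Klf6 lies to the right of 0 in all 4, at 0.34 to 0.70, and the filled points are Klf6, Klf4 and Klf2 under BD10-2.

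The other 7 genes were called in none of the 4 genotype comparisons. Klf10 had 0.29 in sham vehicle slices (SE 0.09, edgeR adjusted p = 0.0534), with no overlap, and -0.24 in stimulated BD10-2 slices (SE 0.09, edgeR adjusted p = 0.0968), also with no overlap. In stimulated vehicle slices it had -0.11 and in sham BD10-2 slices 0.05, and in both the groups overlapped. Klf7 ran from -0.21 to 0.19, Klf5 from -0.40 to -0.04, Klf3 from -0.03 to 0.14, Klf13 from -0.11 to 0.14, Klf15 from -0.08 to 0.14 and Klf9 from -0.08 to 0.06. With batch as a covariate Klf7 was called in stimulated vehicle slices. Averaged over the 4 combinations, again chosen afterwards, 3 of 10 genes were called against 31.5% of all genes, a share near the background. They were Klf6 (0.50, SE 0.08, edgeR adjusted p = 1.58e-05), Klf4 (0.44, SE 0.10, edgeR adjusted p = 0.00102) and Klf2 (0.36, SE 0.10, edgeR adjusted p = 0.00764), and the same 3 genes were called when the mouse was a random replicate block. All 3 belong to the activator class, of which Klf5 (-0.15, SE 0.15) and Klf7 (0.05, SE 0.06) did not pass.

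Batches that held both genotypes had 1 or 2 slices of each, and single batches were not tested. In the fit with batch as a covariate, Klf6 (0.59, edgeR adjusted p = 0.00262) and Klf2 (0.68, edgeR adjusted p = 0.0435) were called in stimulated BD10-2 slices. For Klf6 the T41B minus wild-type difference on the log2(CPM + 1) scale was 0.10 and 0.73 in sham and 0.41 and -0.03 in stimulated vehicle slices (batches A and C). It was 0.32 and 0.15 in sham BD10-2 slices (batches D and I) and 0.66 in stimulated ones (batch I). Klf4 had 0.04 and 0.47 in sham and 0.27 and -0.14 in stimulated vehicle slices, and 0.01, 0.66 and 0.38 under BD10-2 in the same order. Klf2 had -0.39 and 0.37 in sham and 0.45 and 0.56 in stimulated vehicle slices, and -0.12, 0.66 and 0.75 under BD10-2. The differences had 1 sign in stimulated slices for Klf2 and in sham slices for Klf4 and Klf6, and both signs in the other state. Microglial markers were higher in T41B slices in every combination, for example 708.1 to 989.2 CPM against 281.6 to 347.7 CPM in sham BD10-2 slices. In stimulated BD10-2 slices 9 of 9 microglial markers were called higher. Of 7 astrocyte markers 5 were called higher there and 2 in each of the other 3 comparisons, with sums of 9418 to 12730 CPM in T41B and 7954 to 9091 CPM in wild-type stimulated BD10-2 slices. Of 8 neuron markers 1, 2, 3 and 0 were called lower in sham vehicle, stimulated vehicle, sham BD10-2 and stimulated BD10-2 slices, and the sums in the last were 2025 to 2928 CPM in T41B and 2631 to 3187 CPM in wild-type slices. In the average over the 4 combinations 9 of 9 microglial and 6 of 7 astrocyte markers were higher and 5 of 8 neuron markers lower. In stimulated BD10-2 slices, the median log2 fold change of 6 mural cell markers was 0.41, with 1 called higher, and that of 8 endothelial markers 0.39, with none called. The part of all these markers in the Klf2, Klf4 and Klf6 results was not tested.

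BD10-2 was compared with vehicle in each genotype and slice state. No Kruppel-like factor and no other gene was called by edgeR in sham wild-type, stimulated wild-type, sham T41B or stimulated T41B slices (0.0% each). Unadjusted edgeR p-values were under 0.05 for 374, 1093, 431 and 759 genes in that order, none of them among the 10, and DESeq2 called 0, 25, 0 and 0 genes and limma voom none. Log2 fold changes of the 10 genes ran from -0.19 (Klf5) to 0.23 (Klf15) in sham and from -0.23 (Klf4) to 0.16 (Klf13) in stimulated wild-type slices. In T41B slices they ran from -0.16 (Klf10) to 0.36 (Klf4) in sham and from -0.11 (Klf5) to 0.19 (Klf4) in stimulated slices. The 95% intervals over the 4 comparisons reached from -0.84 to 0.73 for Klf5, the widest, from -0.64 to 0.72 for Klf4, from -0.57 to 0.71 for Klf2 and from -0.54 to 0.43 for Klf6, down to -0.22 to 0.26 for Klf9, the narrowest. Each batch held mice of 1 treatment, so treatment and batch cannot be told apart. No gene was called by edgeR for a difference in the stimulation effect between treatments, in wild-type or T41B slices (0.0% each), with 337 and 526 genes at an unadjusted p under 0.05, and DESeq2 called 0 and 1 and limma voom none.

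Other genes that share sites or partners with the family were read from lists, to be set against the 12.3%, 21.5%, 8.87% and 22.9% of all genes called for stimulation in wild-type vehicle, T41B vehicle, wild-type BD10-2 and T41B BD10-2 slices. In that order 2, 2, 2 and 3 of 8 Sp factors and 1, 1, 2 and 1 of 9 cofactors were called, near the share of all genes in several comparisons. Of 7 further Kruppel-like factors, 4 passed the filter, and Klf1, Klf14 and Klf17, with medians of at most 0.178 CPM, did not. Klf16 rose in all 4 stimulation comparisons, by 0.31 to 0.47, from 47.9 ± 4.65 to 62.1 ± 5.29 CPM (SD, n = 4) in wild-type vehicle slices. Klf12, a repressor, fell in all 4, with log2 fold changes of -0.49 to -0.31, from 50.9 ± 2.38 to 38.1 ± 0.714 CPM (SD, n = 4) in the same slices. Klf8 and Klf11 were called in none. Of 9 Sp factors 8 were tested. Sp2 rose in 4 of 4 (0.30 to 0.52), and so did Sp5 (1.77 to 2.94), which stayed at or below 1.99 CPM in every sample. Sp4 fell in T41B BD10-2 slices (-0.32, SE 0.09, edgeR adjusted p = 0.0140). Of 9 cofactors of the family, Sin3a, the scaffold that Klf9, Klf10 and Klf13 bind, rose in 4 of 4 (0.20 to 0.27) and Ep300 in wild-type BD10-2 slices (0.21), while Sin3b, Ctbp1, Ctbp2 and the other 4 were called in no single stimulation comparison.

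Of 9 genes known as targets of KLF2 and KLF4 in endothelium, stimulation raised 6, 8, 4 and 8 and lowered 1, 0, 0 and 1 in wild-type vehicle, T41B vehicle, wild-type BD10-2 and T41B BD10-2 slices. Of all genes 12.3%, 21.5%, 8.87% and 22.9% were called in either direction in the same order, and the list's median log2 fold change was 0.84, 1.78, 0.85 and 1.54 against -0.01, -0.05, -0.01 and -0.04 for all genes. The list mixes genes that the factors repress with genes that they induce. Edn1, the vasoconstrictor that KLF2 represses, rose in 4 of 4 (3.25 to 4.01), from 2.56 ± 0.498 to 41.5 ± 13.2 CPM (SD, n = 4) in wild-type vehicle slices. The adhesion molecules Vcam1 (1.77 to 2.27) and Sele (3.19 to 4.78), also repressed by KLF2 in cultured endothelium, rose in 4 of 4. Nos3 and Thbd, which KLF2 induces there, rose in T41B slices, by 1.84 and 1.78 under vehicle and by 1.54 and 1.58 under BD10-2. Their log2 fold changes in wild-type slices did not pass (0.84 and 0.35 under vehicle, 0.85 and 0.47 under BD10-2). Tek fell in wild-type vehicle (-1.03) and T41B BD10-2 slices (-0.96). Adamts1 was also higher in T41B than in wild-type slices in 3 of 4 genotype comparisons (0.66 to 0.77). Tested directly, the difference between genotypes in the stimulation effect was called by edgeR for none of the 9, with adjusted p of 0.112 for Thbd and 0.504 for Nos3 in the average over treatments. Summed endothelial markers were 139.9 to 261.3 CPM in stimulated against 52.2 to 143.9 CPM in sham T41B slices under vehicle and 118.0 to 259.9 against 98.7 to 196.2 CPM under BD10-2, and their part in these counts was not tested.

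Genes of the ERK5 and MEF2 route, by which flow induces Klf2 in endothelium, split. Mapk7, which encodes ERK5, rose in 4 of 4 stimulation comparisons (0.34 to 0.61) and Map3k3, a kinase above it, in 3 of 4 (0.29 to 0.54, with 0.29 in wild-type vehicle slices not passing). Mef2c fell in 3 of 4 (-0.97 to -0.62, with -0.62 in wild-type BD10-2 slices not passing), and the other 4 genes tested were called in no single stimulation comparison. In the average over the 4 combinations 2 of the 7 genes tested were called higher and 2 lower, against 46.8% of all genes called. Of 12 genes that glucocorticoids regulate, as they do Klf9 and Klf15, stimulation raised 5, 5, 4 and 5 and lowered 0, 1, 0 and 4 in wild-type vehicle, T41B vehicle, wild-type BD10-2 and T41B BD10-2 slices, against 12.3%, 21.5%, 8.87% and 22.9% of all genes called in either direction. The list's median log2 fold change was 0.34, 0.13, 0.23 and 0.23. Cdkn1a (up to 1.62), Nfkbia (1.18 to 1.42), Pdk4 (1.12 to 1.55) and Mt2 (0.80 to 1.18) rose in 4 of 4. Fkbp5, a common readout of the glucocorticoid receptor, fell in both T41B combinations (-0.45 and -0.36), Tsc22d3 and Zbtb16 fell in T41B BD10-2 slices (-0.67 and -0.41), and Per1 passed in no single comparison (-0.31 to -0.13). In the average over the 4 combinations 7 of the 12 were called higher and 5, with Per1 among them, lower, against 46.8% of all genes called. Between genotypes Nfkbia was higher in T41B slices in 4 of 4 (0.82 to 1.21), Mt2 in 3 of 4 (0.64 to 1.08, with 0.64 in stimulated vehicle slices not passing) and Cdkn1a in the 2 stimulated comparisons (1.05 and 1.26). Of the 12 genes, 2, 2, 2 and 3 were called higher and 0, 0, 0 and 1 lower. The order is sham vehicle, stimulated vehicle, sham BD10-2 and stimulated BD10-2 slices. Of all genes 6.24%, 5.79%, 5.45% and 10.6% were called in either direction.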

How the data were processed

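RNA of 36 slice libraries from 18 mice was sequenced from 200 ng of total RNA with ribosomal depletion and a stranded kit, per the labels' protocols. Per gene and library the authors deposited the RSEM expected count, in which reads shared between genes are split, so values can hold decimals. The submitters' processing notes name cutadapt 1.8.1, STAR 2.7.6a, RSEM 1.3.1, featureCounts 1.6, SAMtools 1.11 and the build GRCm38.p6. The annotation release and strand setting are not given in the sources used here. Libraries with equal labels (4 pairs) were added and the sums rounded, giving 32 samples. Within these pairs the chi-square statistic over its degrees of freedom was 8.10 to 31.6, beyond sampling noise and inside the 6.90 to 77.0 between libraries of different mice. The sham Mouse1565 pair was the least alike in its group, so that the pairs repeat 1 slice rests on the labels. Genes were kept by filterByExpr (minimum count 10), scaled by TMM (factors 0.91 to 1.063) and tested with the quasi-likelihood F test of edgeR 4.0.16 in R 4.3.3, in 1 fit with a coefficient for each of 8 groups. Benjamini-Hochberg adjustment covered all 19478 genes, and genes under 0.05 were called. SE was computed as the log2 fold change over the root of F, and 95% intervals from it by the normal approximation.

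The 16 comparisons were stimulation, genotype and treatment (4 each) and 4 interactions, and 3 averages were added after the data were seen. In the averages over genotype, edgeR treats both slices of a mouse as separate. Slices of 14 mice pair by the mouse number in the labels, and deviations from group means correlated at a mean r of 0.29 within mice (n = 14) and -0.078 between different mice (n = 52). Deviations from a group mean cancel within the group, so the second value follows largely from the first and is no independent baseline. Alternatives were DESeq2 1.42.0, limma 3.58.1 (voom with the mouse as a random block), a fixed mouse block, no TMM, no filter, only the groups compared, 1 library of each pair, batch, and leaving out each mouse. Leaving out the low-Thy1 library or the choroid-rich slices was chosen after seeing the data. The members and lists were chosen with earlier results of these data known. Called members are named in every comparison; values in every sample follow a rule that picked Klf6, and those of Klf2, Klf4, Klf10 and Klf15 were added after their values were seen. Genes named from other lists had a call in 2 or more of 4 comparisons and the largest mean log2 fold change, up to 3 a direction; others were named after their values were seen. On counts simulated for stimulation in wild-type vehicle slices (19447 genes), 65.8% of 199 genes changed by a log2 fold change of 1 were recovered, and 24.6% of 199 at 0.5 (19449 genes). For stimulation in T41B BD10-2 slices 73% and 30% of 200 were recovered, and for genotype in stimulated BD10-2 slices 70.5% and 15.5% of 200 (19445 genes each).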

Additional observations from a re-analysis of the deposited data

Results flagged for a closer look

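In groups of 4 or 5 slices, 60 checks for a slice far from the others were run on the 10 genes, and chance alone singles out about 1 in 20. They found 2. The Klf6 level of 83.11 CPM in the sham slice of wild-type vehicle Mouse1522 stood above the other 3 slices of its group (55.21 to 59.81 CPM). The Klf7 level of 61.41 CPM in the stimulated slice of T41B vehicle Mouse1553 stood below the other 3 (69.63 to 70.91 CPM).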

How the results depend on the processing

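Of 455 alternatives for the log2 fold changes of called members, 405 left the call as it was, 50 lost it and 0 changed its direction. The total includes the averages added after the data were seen. Their calls were kept throughout, except that of Klf4 for stimulation, lost in 14 of 27. All other losses fell on the single comparisons, which were less stable than the total shows. Members called for stimulation in T41B vehicle slices (1) numbered 2 with DESeq2, 3 with batch as a covariate, with library size alone or without the low-Thy1 library, and 4 with the mouse as a fixed or random replicate block. The count in wild-type BD10-2 slices (3) was 1 with the fixed replicate block or the first library of each pair and 4 with the random block, and that in T41B BD10-2 slices (2) was 4 with the random block. For genotype, the count in sham vehicle slices (0) was 1 with DESeq2, that in stimulated vehicle slices (0) was 1 with DESeq2 or batch, and that in sham BD10-2 slices (1) was 2 with DESeq2 and 0 with batch. For genotype by stimulation averaged over treatments (0) it was 1 with DESeq2 and 1 with the random block. Leaving out one mouse at a time gave counts from 1 to 2 for stimulation in T41B vehicle, 0 to 1 in wild-type BD10-2 and 1 to 3 in T41B BD10-2 slices, from 0 to 1 for genotype in sham vehicle and 0 to 2 in sham BD10-2 slices, and from 0 to 1 for the averaged genotype by stimulation. The cause of these moves was not tested. The other counts kept within 1.5 times their value under all their alternatives, and the replicate block ended no other call of a member than those named beside their values. Klf2 and Klf5 rest on the fewest reads, and whether depth limits them was not tested. Whether replicate mice were littermates is not given in the sources used here.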
